A study of Mus musculus with 9 samples.

Results

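The comparison described here set old mice given the β3-adrenergic agonist BRL37344 against old mice given saline, in haematopoietic stem cells (HSCs) sorted from the bone marrow. It rests on 6 of the 9 libraries in the series, all of C57BL/6 mice. The BRL37344 old group had 3 libraries from mice of 15 to 20 months that received 2.4 mg of the drug per kg per day from an osmotic pump under the skin for 12 weeks, with a new pump at week 6. The saline old group had 3 libraries from mice of the same age range whose pumps held saline. A saline young group of 3 libraries from mice of 2 months entered the model for its spread and is quoted as a level only. The drug reached the whole animal, and each library was made from about 2000 sorted cells. The labels say neither which surface markers were sorted on nor whether each library is 1 mouse, so every p-value here reflects the scatter of these libraries alone, which may be technical. Values are in RPKM, the reads of a gene scaled by its transcript length and the depth of the library, as the authors deposited them, and 3 values in a row are of replicates 1, 2 and 3.

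HSCs give rise to all blood lineages and divide rarely. Sympathetic nerve fibres in the bone marrow release noradrenaline onto cells of the niche, and the fibres are known to change with age. β-Adrenergic receptors couple through the stimulatory G protein to adenylyl cyclase, which makes cyclic AMP (cAMP). Protein kinase A then phosphorylates the transcription factor CREB, which binds cAMP response elements in promoters. HSCs of old mice are known for a platelet-biased and lymphoid-poor programme with more Selp, Vwf and Slamf1 transcript.

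No gene passed the test across all genes. Of 13516 genes tested with limma, 0 (0.0%) had an adjusted p under 0.05, and 762 (5.64%) had an unadjusted p under 0.05, where 676 would be expected with no effect. Higher genes made up 2.9% of all tested and lower ones 2.74%. The 3 BRL37344 libraries lay wholly above the 3 saline old libraries for 651 genes (4.82%) and wholly below for 713 (5.28%), together 10.1%. The median log2 change over all genes was 0.01. The smallest adjusted p was 0.0774, for the predicted gene Gm24786.

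The 3 BRL37344 libraries were not alike. Over the tested genes, replicate 3 correlated most with saline old replicates 3 (Pearson r = 0.964) and 2 (r = 0.961) and less with BRL37344 replicates 1 (r = 0.943) and 2 (r = 0.956). BRL37344 replicates 1 and 2 correlated with each other at r = 0.951, within the range of 0.949 to 0.964 for the 9 pairs between groups. Each r is across genes, and genes are not independent of each other. The first principal component of the 6 old libraries took 27.8% of the variance. It placed BRL37344 replicates at -32.6, -25.1 and 16.7 and saline old replicates at -19.9, 25.2 and 35.6, so BRL37344 replicate 3 stood with saline replicates 2 and 3 and saline replicate 1 with BRL37344 replicates 1 and 2. The steps between low values implied that a 2 kb transcript at 1 RPKM rested on 32, 67 and 90 reads in BRL37344 old and on 31, 34 and 83 reads in saline old. Leaving out BRL37344 replicate 3 gave 39 genes past the threshold (0.289%), of which 12 were higher (0.0888%) and 27 lower (0.2%). Each other left-out library gave 0 or 1 (0.0% or 0.0074%). With all 9 libraries, a pseudocount of 0.1 or plain empirical Bayes gave 1 (0.0074%) and sample quality weights 3 (0.0222%). A fit of only the 2 old groups gave 2 (0.0148%).

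**Figure D1:**
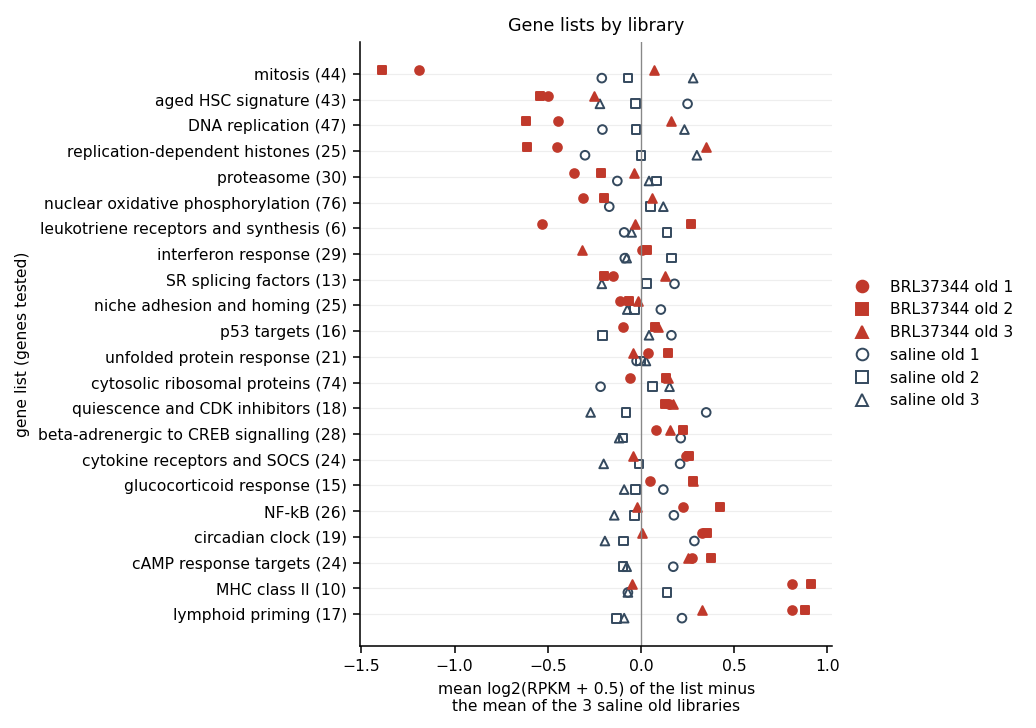
Mean log2(RPKM + 0.5) of each pathway list in each old library, as the difference from the mean of the 3 saline old libraries, with BRL37344 libraries as filled and saline libraries as open symbols and the number of genes tested in parentheses. For mitosis, BRL37344 replicates 1 and 2 stand far to the left and replicate 3 stands among the saline libraries. The aged HSC signature is lower than every saline library in all 3 BRL37344 replicates, in replicate 3 by little, and lymphoid priming is higher in all 3.

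Mitosis genes were lower in BRL37344 replicates 1 and 2 and not in replicate 3. All 44 tested members of the mitosis list had a negative log2 change, against 49.0% of all genes, and their median was -0.87, against 0.01 over all genes. The mean log2 level of the list was 3.0, 2.8 and 4.26 in BRL37344 old and 3.98, 4.12 and 4.47 in saline old. In saline young it was 4.14, 4.18 and 4.08, inside the saline old range. Replicate 1 lay below every saline old library for 40 members and replicate 2 for 42, against 25.8% and 25.7% of all genes. Replicate 3 lay below for 5, within the saline range for 29 and above it for 10. No member passed the test (0.0% of all genes called), and 14 of 44 had an unadjusted p under 0.05, against 5.64% of all genes. In bulk libraries, fewer dividing cells and less of these transcripts per cell cannot be told apart. The summed level of neutrophil markers was the lowest of the 6 libraries in replicate 1 and the highest in replicate 2, while mitosis genes were low in both. The part of other cell types in the mitosis result was not tested.

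Cyclins and their kinase differed among themselves in how far replicates 1 and 2 stood apart. Ccnb2, cyclin B2, which activates Cdk1 at entry into mitosis, stood at 21.2, 18.6 and 85.2 RPKM in BRL37344 old and at 66.5, 73.6 and 104 RPKM in saline old. The first 2 BRL37344 values were below every saline value, and the third was within their range (log2 change -1.29 ± 0.48 SE, limma adjusted p = 0.839). Cdk1, the kinase that drives mitosis, stood at 86, 73.4 and 214 RPKM in BRL37344 old and at 156, 169 and 184 RPKM in saline old. Here replicate 3 was the highest of the 6. Ccna2, cyclin A2, stood at 18.5, 20.6 and 70.4 RPKM in BRL37344 old and at 56.9, 49.4 and 42.3 RPKM in saline old, again with replicate 3 above all saline libraries. Ccnb1, cyclin B1, was lower and more scattered, at 0.520, 4.87 and 10.2 RPKM in BRL37344 old and 7.78, 6.03 and 15.7 RPKM in saline old.

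Genes of the anaphase-promoting complex and of mitotic kinases followed the same libraries. Cdc20, the activator of the anaphase-promoting complex, stood at 26.3, 22 and 70.4 RPKM in BRL37344 old and at 55.1, 65.4 and 71.1 RPKM in saline old. Ube2c, the ubiquitin-conjugating enzyme of that complex, stood at 14.5, 19.5 and 63.8 RPKM in BRL37344 old and at 58.4, 58.6 and 72.8 RPKM in saline old. Plk1, a kinase of spindle assembly, stood at 7.30, 8.35 and 30.1 RPKM in BRL37344 old and at 21.4, 21.8 and 28.2 RPKM in saline old. In all 3 genes replicates 1 and 2 were less than every saline library, and replicate 3 was within or above their range. Birc5, survivin, a subunit of the chromosomal passenger complex, stood at 28.1, 24.9 and 104 RPKM in BRL37344 old and at 60.4, 84.8 and 102 RPKM in saline old.

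Groups did not overlap for 2 of the 44 members, both lower, a share no larger than the 5.28% of all genes. Both act in the spindle or its checkpoint. Bub1b, the checkpoint kinase BubR1, stood at 8.23, 7.72 and 14.7 RPKM in BRL37344 old and at 17.3, 18.1 and 23 RPKM in saline old. It had the smallest p of the list (log2 change -0.95 ± 0.26 SE, limma adjusted p = 0.839), and all 3 BRL37344 libraries were below all 3 saline ones. Nusap1, a spindle microtubule protein, was the other, at 2.76, 1.37 and 1.5 RPKM in BRL37344 old and 8.69, 3.06 and 3.51 RPKM in saline old. Hmmr, a spindle-associated hyaluronan receptor, stood at 2.87, 2.67 and 12.2 RPKM in BRL37344 old and at 12.4, 11.6 and 13.2 RPKM in saline old, with replicate 3 inside the saline range. Prc1, which bundles microtubules in cytokinesis, stood at 18.6, 14 and 51.4 RPKM in BRL37344 old and at 49.3, 44 and 63.8 RPKM in saline old. Mki67, the antigen Ki-67, was low in every library, at 1.64, 1.5 and 3.80 RPKM in BRL37344 old and 2.38, 3.02 and 3.47 RPKM in saline old.

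**Figure D2:**
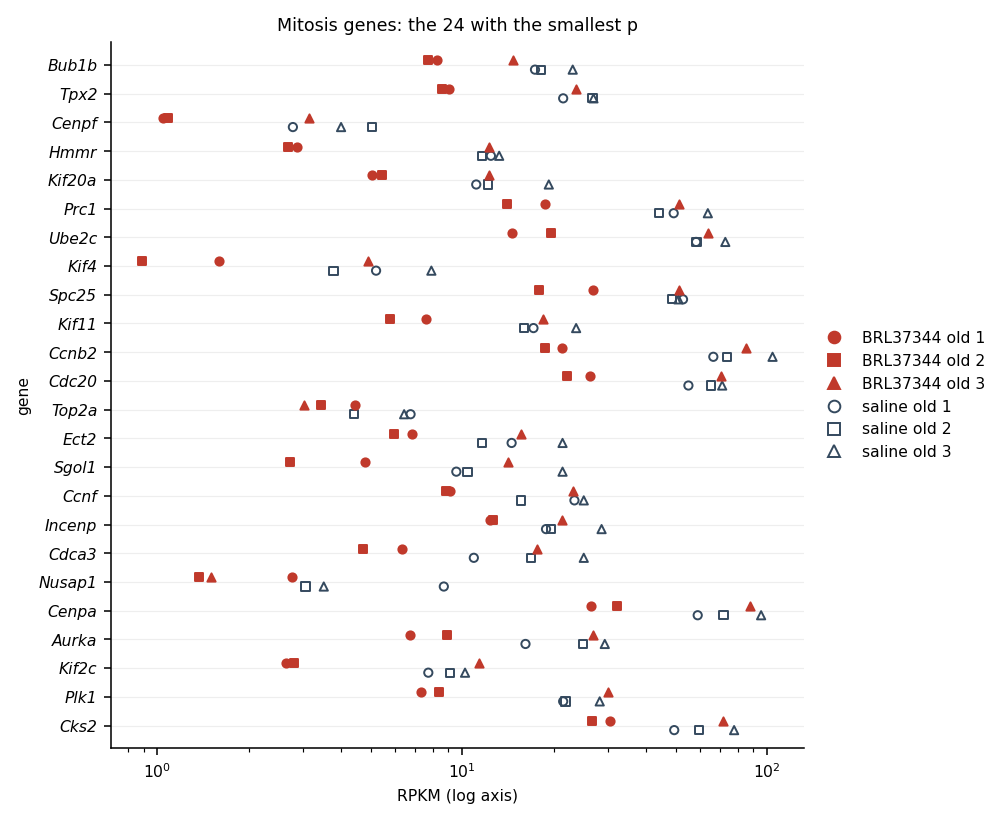
RPKM on a log axis of the 24 mitosis genes with the smallest p, by library, with BRL37344 old as filled symbols above the open saline old symbols of the same gene. In most genes BRL37344 replicates 1 and 2 are left of all saline libraries and replicate 3 lies among them; Bub1b and Nusap1 are the genes whose groups do not overlap.

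Of the 39 genes that passed without BRL37344 replicate 3, 15 of the 27 lower ones belonged to the mitosis list. With that library left out, the log2 change was -1.98 ± 0.18 SE for Ccnb2 (limma adjusted p = 0.0126), -1.87 for Ube2c, -1.38 for Cdc20, -1.98 for Hmmr and -1.54 for Plk1. Replicate 3 was seen to differ in these same data, and this fit keeps only 2 BRL37344 libraries. The p-values of this fit therefore describe replicates 1 and 2 and are no independent support. Among all 27, replicate 3 itself was within the saline old range for 15, above it for 10 and below it for 2. The 2 were Nupr1 and the collagen gene Col18a1. Lower genes outside the list included Cdkn3, a phosphatase of cyclin-dependent kinases, at 3.49, 5.30 and 21.3 RPKM in BRL37344 old and 16.5, 18 and 26.7 RPKM in saline old. Ptn, the growth factor pleiotrophin, stood at 6.61, 3.74 and 19.7 RPKM in BRL37344 old and at 17, 17.3 and 18.7 RPKM in saline old. Cdkn3 and Ptn were chosen for mention after their values were seen.

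The promoters of 4 of these genes are shown because many mitosis genes share a pair of short elements, the CCAAT box, bound by the factor NF-Y, and the cell cycle homology region (CHR), through which they are repressed outside division. A script searched the 250 bases before each RefSeq gene start (build GRCm38.p6, the same assembly as mm10) on both strands for CCAAT and for the CHR letters TTTGAA, which do not overlap as letters. Of the 44 tested mitosis genes, 36 matched the RefSeq table, with 38 windows. CCAAT was in 31 of these windows (81.6%), against 33.8% of all 32851 promoter windows, and TTTGAA in 14 (36.8%), against 16.0%. Both were in 13 windows (34.2%), against 5.55% of all. Of the 15 mitosis genes that passed without BRL37344 replicate 3, 6 had both in a window. The 4 shown have the smallest p of those 6, so holding both motifs was a condition of the choice. Prc1 has 2 windows, and 1 that holds both is shown. In the 47 windows of the DNA replication list, CCAAT was in 59.6% and TTTGAA in 14.9%. The windows are given 5′ to 3′ on the strand of the gene, with matches to either motif on either strand in capitals.
Ccnb2, chr9:70421555-70421804, minus strand: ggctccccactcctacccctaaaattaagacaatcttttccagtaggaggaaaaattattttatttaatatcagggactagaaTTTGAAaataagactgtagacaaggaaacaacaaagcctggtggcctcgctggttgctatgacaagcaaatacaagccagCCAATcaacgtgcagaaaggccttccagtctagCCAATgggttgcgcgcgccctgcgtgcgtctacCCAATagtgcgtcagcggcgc
Ube2c, chr2:164769679-164769928, plus strand: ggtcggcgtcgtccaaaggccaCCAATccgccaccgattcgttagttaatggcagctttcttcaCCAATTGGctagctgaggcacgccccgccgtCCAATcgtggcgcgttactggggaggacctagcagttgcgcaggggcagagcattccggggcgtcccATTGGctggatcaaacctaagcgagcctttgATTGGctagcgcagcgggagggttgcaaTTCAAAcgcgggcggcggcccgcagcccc
Cdc20, chr4:118437344-118437593, minus strand: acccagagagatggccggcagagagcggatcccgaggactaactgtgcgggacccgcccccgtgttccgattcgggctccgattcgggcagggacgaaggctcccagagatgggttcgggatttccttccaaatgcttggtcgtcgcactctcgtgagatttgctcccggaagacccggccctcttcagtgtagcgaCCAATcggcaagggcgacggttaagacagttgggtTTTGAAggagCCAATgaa
Prc1, chr7:80294226-80294475, plus strand: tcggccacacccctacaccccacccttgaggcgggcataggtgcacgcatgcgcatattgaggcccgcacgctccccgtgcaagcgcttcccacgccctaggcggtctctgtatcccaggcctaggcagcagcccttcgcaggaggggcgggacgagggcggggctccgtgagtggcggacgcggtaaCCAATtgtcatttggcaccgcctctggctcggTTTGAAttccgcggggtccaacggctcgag
In Cdc20, Prc1 and Ube2c the CHR letters began 18, 30 and 29 bases before the start, and the nearest CCAAT letters further upstream than the CHR began at 53, 62 and 57 bases. In Ccnb2 the CHR letters began 167 bases before the start, upstream of its 3 CCAAT matches at 87, 54 and 21 bases. A match is a description of these letters and not a measured site.

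Genes of DNA replication shifted in the same libraries by less. Of 47 tested members, 41 (87.2%) had a negative log2 change, with a median of -0.30, and none passed. The mean log2 level was 4.23, 4.06 and 4.84 in BRL37344 old and 4.47, 4.65 and 4.91 in saline old, so replicate 3 was again inside the saline range. Groups did not overlap for 4 members, all lower, against 5.28% of all genes. Rpa1, the large subunit of the single-strand binding protein RPA, stood at 77.8, 78.9 and 95.1 RPKM in BRL37344 old and at 107, 106 and 121 RPKM in saline old (log2 change -0.41 ± 0.11 SE, limma adjusted p = 0.839). Rrm2, the small subunit of ribonucleotide reductase, stood at 0.669, 1.06 and 2.19 RPKM in BRL37344 old and at 4.51, 3.43 and 3.01 RPKM in saline old. Pold1, the catalytic subunit of DNA polymerase delta, and Orc1, of the origin recognition complex, were the other members with no overlap. Ccne2, cyclin E2, which acts at the start of S phase, stood at 8.62, 6.82 and 21.2 RPKM in BRL37344 old and at 19.5, 20.6 and 29.3 RPKM in saline old. Its replicate 3 lay within the saline range. Replication-dependent histones had 19 of 25 tested members negative and a median of -0.27, with mean log2 levels of 2.06, 1.90 and 2.86 in BRL37344 old and 2.21, 2.51 and 2.81 in saline old. No histone had groups that did not overlap, and closely similar histone genes may share reads.

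The aged HSC signature was lower in all 3 BRL37344 libraries by its mean log2 level, in replicate 3 by little. It is a list of genes known to be high in HSCs of old mice, and 37 of its 43 tested members (86.0%) had a negative log2 change, with a median of -0.40. The 3 BRL37344 libraries were wholly below the saline old libraries for 12 members and wholly above for 0, against 5.28% and 4.82% of all genes. Its mean log2 level was 4.61, 4.57 and 4.86 in BRL37344 old and 5.36, 5.08 and 4.89 in saline old, and 3.01, 2.84 and 2.87 in saline young. The groups nearly met, at BRL37344 replicate 3 and saline old replicate 3. The summed RPKM of the list overlapped there, at 2789 in BRL37344 replicate 3 and 2714 in saline old replicate 3. None of the members passed the test, and 16 had an unadjusted p under 0.05, against 5.64% of all genes.

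Among the signature's surface and secreted proteins, Vwf, the platelet adhesion protein von Willebrand factor, stood at 69.7, 42.1 and 100 RPKM in BRL37344 old and at 150, 139 and 119 RPKM in saline old. Its groups did not overlap (log2 change -1.02 ± 0.34 SE, limma adjusted p = 0.839), and the saline young mean was 36.9 RPKM. Clu, the secreted chaperone clusterin, stood at 17, 6.98 and 18.4 RPKM in BRL37344 old and at 64.8, 38.1 and 21 RPKM in saline old. Gpr183, an oxysterol receptor, stood at 12.2, 15.1 and 15.7 RPKM in BRL37344 old and at 27.9, 22.3 and 17.2 RPKM in saline old. For Clu and Gpr183 the groups were apart, but saline replicate 3 came close to the BRL37344 libraries. Alcam, an adhesion molecule, stood at 15.1, 16.3 and 17.8 RPKM in BRL37344 old and at 28.5, 22.9 and 21.4 RPKM in saline old. Slamf1, the marker CD150, which is known to rise on old HSCs, stood at 20.7, 15.9 and 33.8 RPKM in BRL37344 old and at 41.6, 38.6 and 29.4 RPKM in saline old, so its groups overlapped. Selp, P-selectin, overlapped too, at 87.9, 61.1 and 136 RPKM in BRL37344 old and 142, 130 and 109 RPKM in saline old.

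Among its intracellular members, Nupr1, a stress-induced transcription regulator, stood at 52.1, 46.5 and 84.9 RPKM in BRL37344 old and at 94.4, 99.7 and 106 RPKM in saline old, against a saline young mean of 11.3 RPKM. All 3 BRL37344 libraries were below the lowest saline old library (log2 change -0.75 ± 0.20 SE, limma adjusted p = 0.839), and it was the only signature gene among the 39 that passed without BRL37344 replicate 3. Plscr2, a phospholipid scramblase, stood at 74.7, 56.4 and 114 RPKM in BRL37344 old and at 142, 127 and 137 RPKM in saline old, against 4.36 RPKM in saline young. Ehd3, which acts in endosome recycling, had the smallest p of the list, at 21.7, 24.9 and 28.9 RPKM in BRL37344 old and 49.3, 44.6 and 31.1 RPKM in saline old (log2 change -0.70 ± 0.19 SE, limma adjusted p = 0.839). These levels stayed well over those of saline young in all 3 BRL37344 libraries for Nupr1, Plscr2 and Ehd3. The metallothionein Mt1 showed no such gap, at 169, 201 and 281 RPKM in BRL37344 old and 231, 288 and 223 RPKM in saline old. The 6 members with a positive change were Cpne8, Ddr1, Exoc6b, Gda, Ghr and Trim47, none above a log2 change of 0.17.

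**Figure D3:**
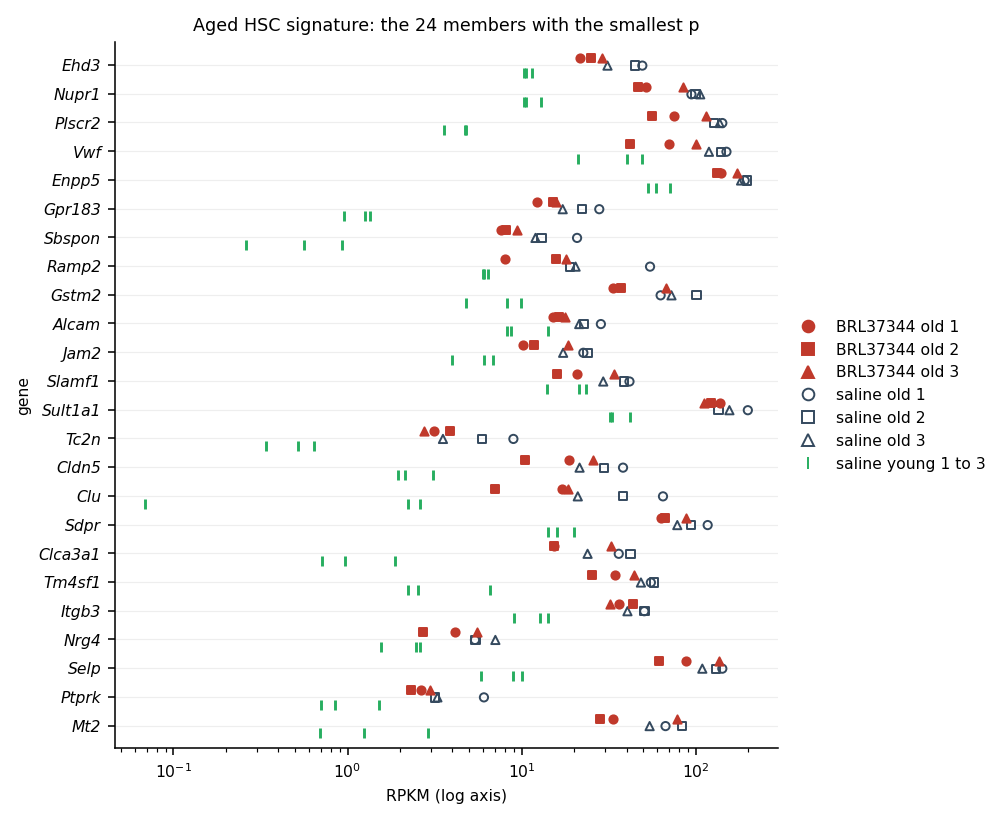
RPKM on a log axis of the 24 aged HSC signature genes with the smallest p, with BRL37344 old as filled symbols, saline old as open symbols below them and saline young as green ticks. All 3 BRL37344 values lie left of all 3 saline old values for 12 of the 24 genes, and in the others the groups overlap.

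Platelet genes as a list were lower in BRL37344 replicates 1 and 2 only. Of 27 tested members, 22 were negative, with a median of -0.26, and the mean log2 level was 4.65, 4.64 and 5.08 in BRL37344 old and 5.07, 5.03 and 4.91 in saline old. Of these members, 4 were wholly lower and 1 wholly higher, against 5.28% and 4.82% of all genes. Several members, Vwf, Clu and Selp among them, also belong to the aged HSC signature. F2r, the thrombin receptor PAR1, stood at 63.2, 64.1 and 80.5 RPKM in BRL37344 old and at 88.2, 92.2 and 111 RPKM in saline old, with no overlap. Rab27b, which acts in granule secretion, stood at 23, 22 and 29.5 RPKM in BRL37344 old and at 37.5, 35.4 and 33.2 RPKM in saline old, with no overlap either. Ppbp, a platelet chemokine, had no overlap in the other direction, at 16.8, 13.6 and 11.5 RPKM in BRL37344 old and 5.99, 8.66 and 9.49 RPKM in saline old (log2 change 0.77 ± 0.21 SE, limma adjusted p = 0.839). Pf4, platelet factor 4, overlapped, between 181 and 520 RPKM in BRL37344 old and between 148 and 433 RPKM in saline old.

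Lymphoid priming genes were higher, most in replicates 1 and 2. Of 17 tested members, 15 (88.2%) had a positive log2 change, against 51.0% of all genes, with a median of 0.57. The mean log2 level was 4.0, 4.07 and 3.52 in BRL37344 old and 3.41, 3.06 and 3.10 in saline old, so all 3 BRL37344 libraries were above all 3 saline old ones. In saline young it was 3.72, 4.05 and 3.95. The groups did not overlap for 5 members, all higher, against 4.82% of all genes. None passed the test. Markers of mature B cells and neutrophils were high in replicate 2 and, by less, in replicate 3, but not in replicate 1, where the lymphoid list was as high; their part in the result was not tested. Wfdc17, a secreted protein of the whey acidic protein family, stood at 146, 174 and 82.9 RPKM in BRL37344 old and at 70.3, 60.8 and 34.3 RPKM in saline old (log2 change 1.27 ± 0.31 SE, limma adjusted p = 0.839). Its mean was 47.0 RPKM in saline young and 55.1 RPKM in saline old, so BRL37344 old was further from saline young. Cd52, a small surface glycoprotein of lymphocytes, stood at 35.1, 82.4 and 43.5 RPKM in BRL37344 old and at 16.3, 15.4 and 24.4 RPKM in saline old. Blnk, the B cell linker protein, had no overlap but low levels, at 2.57, 1.28 and 1.52 RPKM in BRL37344 old and 0.665, 0.705 and 0.859 RPKM in saline old. Flt3, a cytokine receptor of lymphoid-primed progenitors, stood at 78.7, 54.7 and 14.3 RPKM in BRL37344 old and at 28.6, 21.5 and 10.1 RPKM in saline old, and replicate 3 was inside the saline range. Dntt, the polymerase that adds bases at antigen receptor joints, stood at 5.23, 3.50 and 0.345 RPKM in BRL37344 old and at 0.664, 0.441 and 0.335 RPKM in saline old. The recombinase genes Rag1 and Rag2 did not exceed 0.287 RPKM in any old library.

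MHC class II genes, whose products present peptides to T cells, split by library in the same way. All 10 tested members had a positive change, with a median of 0.60, and the mean log2 level was 5.25, 5.35 and 4.39 in BRL37344 old and 4.37, 4.58 and 4.37 in saline old. Replicate 3 was thus inside the saline old range, and no member had groups that did not overlap. In saline young the list stood at 4.16, 3.86 and 3.65, so BRL37344 replicates 1 and 2 were further from saline young than saline old was. H2-Aa, an α chain, stood at 402, 428 and 146 RPKM in BRL37344 old and at 168, 197 and 163 RPKM in saline old. H2-Eb1, a β chain, stood at 144, 168 and 51.6 RPKM in BRL37344 old and at 58.9, 74.7 and 57.4 RPKM in saline old. Saline young means were 62.0 RPKM for H2-Aa and 13.7 RPKM for H2-Eb1, below every old library. Cd74, the invariant chain, averaged 520 ± 291 RPKM in BRL37344 old and 283 ± 47.3 RPKM in saline old (SD, n = 3 each). In each of these 3 genes, replicates 1 and 2 were above every saline library and replicate 3 was the lowest of all 6. Ciita, the master regulator of these genes, stood at 2.52, 2.47 and 1.22 RPKM in BRL37344 old and at 0.555, 2.29 and 1.04 RPKM in saline old. Without BRL37344 replicate 3, H2-Aa passed, with a log2 change of 1.24 ± 0.19 SE (limma adjusted p = 0.0409). The p-value has the limit given for the mitosis genes, since replicate 3 was seen to differ in these same data. It was among 12 higher genes that passed, with Lst1, Ebi3, Ltb, Mgst1, Gcnt2, Shisa5, Mmp2, Pik3ip1, Sephs1 and predicted genes. Of these, Ltb, lymphotoxin β, stood at 189, 260 and 92.1 RPKM in BRL37344 old and at 124, 97.5 and 94.9 RPKM in saline old.

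The receptor that BRL37344 targets was not detected in these cells. Adrb3, the β3 receptor, stood at 0.0005 RPKM, the offset the table gives to a gene with no reads, in all 6 old libraries. Adrb1, the β1 receptor, exceeded the offset in BRL37344 replicate 2 only, at 0.0390 RPKM. Genes of the mitochondrial genome also stood at the offset, so the offset alone does not show that a gene had no transcript.

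Downstream of the receptor, 19 of 28 tested genes from G proteins to CREB had a positive change, with a median of 0.14. Gnai2, an inhibitory G protein subunit, was the only member with no overlap, 1 of 28 against 4.82% of all genes wholly higher, at 400.0, 480.0 and 430.0 RPKM in BRL37344 old and 388, 354 and 316 RPKM in saline old. Gnas, the stimulatory subunit, stood at 77.5, 125 and 172 RPKM in BRL37344 old and at 161, 86 and 76.5 RPKM in saline old. Adcy7, the adenylyl cyclase with the highest level, stood at 24.6, 23.5 and 19.6 RPKM in BRL37344 old and at 19.8, 18.9 and 18.4 RPKM in saline old. Creb1 stood at 31.6, 28.6 and 22.2 RPKM in BRL37344 old and at 28.7, 23.7 and 25.6 RPKM in saline old. For Gnas, Adcy7 and Creb1 the groups overlapped.

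Targets of cAMP signalling were slightly higher in all 3 BRL37344 libraries. Of 24 tested members, 20 (83.3%) had a positive change, with a median of 0.22, and the mean log2 level was 3.19, 3.29 and 3.17 in BRL37344 old and 3.09, 2.82 and 2.84 in saline old. Groups did not overlap for 4 members, Sik1, Per1, Ier2 and Pde4a, all higher, against 4.82% of all genes, and none passed the test. Sik1, a salt-inducible kinase that feeds back on CREB, stood at 3.54, 5.33 and 2.93 RPKM in BRL37344 old and at 2.92, 1.49 and 1.44 RPKM in saline old. Per1, a clock gene that cAMP induces, stood at 19.4, 18.6 and 11.1 RPKM in BRL37344 old and at 4.83, 10.7 and 11 RPKM in saline old. In both genes the lowest BRL37344 value, of replicate 3, was barely above the highest saline old value. Saline young means were 3.80 RPKM for Sik1 and 5.61 RPKM for Per1. Ier2, an immediate early gene, stood at 93.7, 104 and 96.8 RPKM in BRL37344 old and at 91.6, 70.4 and 83.6 RPKM in saline old. Pde4a, a phosphodiesterase that breaks down cAMP, stood at 3.32, 4.73 and 3.67 RPKM in BRL37344 old and at 3.23, 3.26 and 2.54 RPKM in saline old. Other targets showed no gap, such as Fos, at 1.45, 1.60 and 1.90 RPKM in BRL37344 old and 1.57, 1.55 and 1.42 RPKM in saline old, and Nr4a1, at 1.81, 3.11 and 2.59 RPKM in BRL37344 old and 2.78, 5.17 and 1.69 RPKM in saline old.

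The promoter windows of Per1 and Pde4a are shown since they are the non-overlapping cAMP targets with an entry in the RefSeq table; Sik1 and Ier2 are named only. The full response element, TGACG followed directly by TCA, was in 3 of the 21 windows of the 15 matched list genes (14.3%), against 1.55% of all promoter windows, and its shorter core TGACG, which the full element contains, in 14 (66.7%), against 17.8%. The genes with the full element were Btg2, Dusp1 and Ppp1r15a. Capitals mark TGACG on either strand in the 250 bases before the start, on GRCm38.p6.
Per1, chr11:69098699-69098948, plus strand: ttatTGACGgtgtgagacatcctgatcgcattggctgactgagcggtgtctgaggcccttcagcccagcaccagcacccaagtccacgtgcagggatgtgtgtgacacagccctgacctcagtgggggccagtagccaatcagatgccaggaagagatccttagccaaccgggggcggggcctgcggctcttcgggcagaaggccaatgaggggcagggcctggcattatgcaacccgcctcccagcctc
Pde4a, chr9:21183851-21184100, plus strand: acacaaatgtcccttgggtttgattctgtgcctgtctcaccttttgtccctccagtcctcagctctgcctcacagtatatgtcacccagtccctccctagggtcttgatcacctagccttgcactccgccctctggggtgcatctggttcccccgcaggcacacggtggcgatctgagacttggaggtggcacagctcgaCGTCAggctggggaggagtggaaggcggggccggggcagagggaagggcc
The core began 246 bases before the start in this window of Per1 and 50 bases before it, on the opposite strand, in this window of Pde4a. The table holds 2 windows for Per1 and 3 for Pde4a, and for each gene 1 that contains the core was chosen for display.

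Clock and glucocorticoid genes overlap with the cAMP list through Per1. Of 19 tested clock genes, 13 had a positive change, with a median of 0.29, and levels of 3.29, 3.32 and 2.97 in BRL37344 old and 3.25, 2.87 and 2.77 in saline old on the mean log2 scale. Tef, a clock output factor, stood at 20.8, 25.8 and 12.4 RPKM in BRL37344 old and at 12.6, 9.76 and 10.6 RPKM in saline old. Nr1d2, a nuclear receptor that represses clock genes, stood at 56, 55.8 and 34.6 RPKM in BRL37344 old and at 42.6, 25.9 and 18.4 RPKM in saline old. Both had replicate 3 inside the saline range. Nr3c1, the glucocorticoid receptor, was higher with no overlap, at 30.9, 28.3 and 27.5 RPKM in BRL37344 old and 15.4, 20.9 and 19.2 RPKM in saline old (log2 change 0.64 ± 0.14 SE, limma adjusted p = 0.839). Of 15 tested genes of the glucocorticoid list, the receptor included, 11 were positive, with a median of 0.23, and 2 were wholly higher and 1 wholly lower, against 4.82% and 5.28% of all genes. Its target Tsc22d3 stood at 409, 538 and 307 RPKM in BRL37344 old and 254, 276 and 356 RPKM in saline old, and Sgk1 at 11.2, 8.40 and 14.4 RPKM in BRL37344 old and 17.6, 19 and 16.9 RPKM in saline old.

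Markers that define HSCs were present in both groups. Kit, the receptor for stem cell factor, was measured at 258, 225 and 184 RPKM in BRL37344 old and at 185, 227 and 184 RPKM in saline old, and Procr, a surface receptor for protein C, at 44.2, 71 and 29 RPKM in BRL37344 old and 45.2, 35.3 and 40.1 RPKM in saline old. Both overlapped, and Procr changed sign without BRL37344 replicate 2. Of 32 tested identity genes, 22 had a positive change, with a median of 0.16, and none passed. Groups did not overlap for 3 of them, Runx1, Cd48 and Lyl1, all higher, against 4.82% of all genes. The list also holds Cd48 and Cd34, so its positive count is not a measure of HSC identity. Slamf1, another member, had a log2 change of -0.68. Runx1, a transcription factor that HSCs need to arise, had the smallest p of the list, at 10.6, 10.4 and 9.20 RPKM in BRL37344 old and 5.15, 4.41 and 3.27 RPKM in saline old, against a mean of 8.20 RPKM in saline young. Its groups did not overlap (log2 change 1.16 ± 0.22 SE, limma adjusted p = 0.839). Cd48, known to be scarce on primitive HSCs, had no overlap either, at 10.2, 7.54 and 8.72 RPKM in BRL37344 old and 2.80, 2.27 and 6.20 RPKM in saline old, against a mean of 19.4 RPKM in saline young. Cd34, which marks progenitors, stood at 315, 247 and 185 RPKM in BRL37344 old and at 181, 187 and 191 RPKM in saline old. Hlf, a factor of HSC self-renewal, stood at 107, 166 and 91.2 RPKM in BRL37344 old and at 106, 54 and 49.4 RPKM in saline old.

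Of 18 tested quiescence genes, 15 were positive, with a median of 0.12, and 1 was wholly higher, a share near the 4.82% of all genes. Foxo3, a transcription factor of quiescence, was that gene, at 6.98, 6.01 and 6.85 RPKM in BRL37344 old and 4.76, 5.07 and 3.64 RPKM in saline old. Cdkn1c, the inhibitor p57, stood at 21.1, 40.9 and 37.3 RPKM in BRL37344 old and at 54, 16.1 and 13 RPKM in saline old, and its saline replicates spread most. The senescence genes Cdkn2a and Cdkn2b were at the offset in every library. Of 24 genes of cytokine receptors and their SOCS inhibitors, 18 were positive, with a median of 0.15, and 3 were wholly higher, Socs6, Il6ra and Stat3, against 4.82% of all genes. Socs2, an inhibitor of growth hormone and cytokine signals, stood at 10.6, 8.47 and 2.48 RPKM in BRL37344 old and at 24.4, 8.75 and 9.59 RPKM in saline old. In the niche adhesion list, 13 of 25 were positive, with 1 gene wholly higher and 2, Alcam and S1pr1, wholly lower, shares near those of all genes. Cd47, the signal that protects cells from macrophages, was the higher gene, at 317, 334 and 359 RPKM in BRL37344 old and 293, 314 and 268 RPKM in saline old.

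The genes with the smallest p came from no single list. They were picked by p among well-expressed genes whose groups did not overlap, so the separation is part of the choice, and all 24 had a limma adjusted p of 0.839. Ptpre, a receptor tyrosine phosphatase, was higher, at 33.1, 30.4 and 27.7 RPKM in BRL37344 old and 18.9, 20.3 and 17.1 RPKM in saline old (log2 change 0.68 ± 0.13 SE). Foxn3, a forkhead repressor, stood at 53.6, 51.7 and 58.8 RPKM in BRL37344 old and at 41.9, 28.2 and 28.9 RPKM in saline old. Iqgap2, a cytoskeletal scaffold, stood at 66.4, 71.4 and 58.8 RPKM in BRL37344 old and at 48.8, 45.2 and 38 RPKM in saline old. In these 3 genes replicate 3 lay near replicates 1 and 2, unlike in mitosis genes. Dhrs7, a short-chain dehydrogenase, had the tightest replicates, at 40.4, 41.5 and 40.2 RPKM in BRL37344 old and 28.4, 29.1 and 29.4 RPKM in saline old. Lat2, an adaptor of immune receptor signalling, stood at 21, 14.9 and 16.5 RPKM in BRL37344 old and at 7.29, 6.08 and 13.2 RPKM in saline old. Polr3f, Marcksl1, Hsd17b11, Rnase6 and Lpin1 completed the higher genes beside Nr3c1 and Wfdc17, with log2 changes of 0.71, 0.47, 0.69, 0.50 and 0.67.

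Of the lower genes, Srsf7, a splicing factor, stood at 162, 145 and 186 RPKM in BRL37344 old and at 227, 246 and 277 RPKM in saline old (log2 change -0.61 ± 0.12 SE). Cysltr2, a receptor for cysteinyl leukotrienes, stood at 19, 20.6 and 22.8 RPKM in BRL37344 old and at 34.6, 30.9 and 32.2 RPKM in saline old, against a mean of 9.20 RPKM in saline young. Klhl23, of the Kelch-like family, stood at 22, 19.8 and 31.8 RPKM in BRL37344 old and at 44.7, 46.4 and 51 RPKM in saline old. All 3 kept a clear gap between the groups, with replicate 3 the highest of the BRL37344 libraries. Arl6, a small GTPase of cilia, stood at 21.7, 17.3 and 18.2 RPKM in BRL37344 old and at 36.5, 29.8 and 28 RPKM in saline old. Psph, the last enzyme of serine synthesis, stood at 47.1, 46.4 and 43 RPKM in BRL37344 old and at 56.7, 61.6 and 61 RPKM in saline old. Fgfr1op, Reep2, Mrps25, Gk and Cisd1, with Ehd3 and Nupr1, completed the lower genes.

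**Figure D4:**
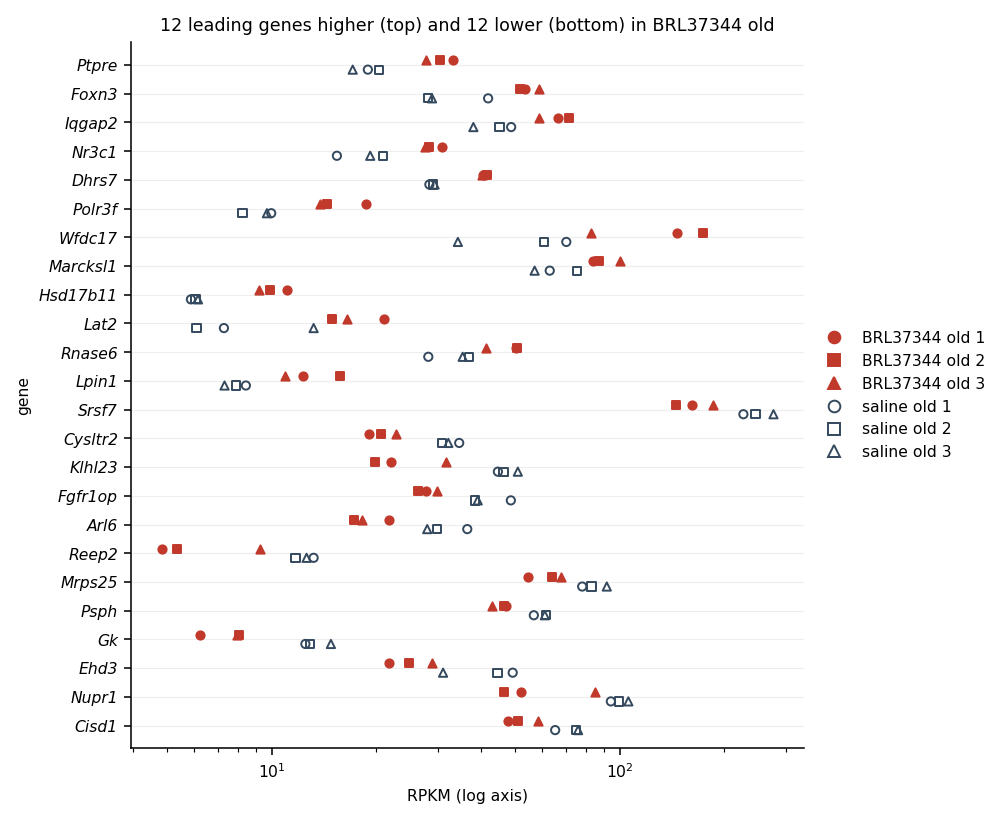
RPKM on a log axis of the 12 leading higher genes (top) and 12 leading lower genes (bottom), by library, with BRL37344 old as filled symbols above the open saline old symbols. Non-overlap was a condition of choice, and all 24 genes had an adjusted p of 0.839.

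Other splicing factors of the SR family split. Of 13 tested, 6 were positive and 7 negative, with a median of -0.02. Srsf7, Tra2b, Srsf10 and Tra2a were wholly lower, 4 of 13 against 5.28% of all genes. Tra2b, which recognises GA-rich exon sequences, stood at 64.1, 58.7 and 63.4 RPKM in BRL37344 old and at 84.6, 75.6 and 79.3 RPKM in saline old, while Srsf5 stood at 149, 130.0 and 133 RPKM in BRL37344 old and 87.3, 146 and 111 RPKM in saline old.

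Housekeeping complexes moved by small amounts. All 30 tested proteasome genes had a negative change, with a median of -0.17, and 5 were wholly lower (5.28% of all genes). Psmd1, a subunit of the regulatory particle, stood at 59.8, 75.6 and 79.4 RPKM in BRL37344 old and at 81.2, 90.5 and 96.9 RPKM in saline old. Of 76 nuclear genes of oxidative phosphorylation, 70 (92.1%) were negative, with a median of -0.14 and mean log2 levels of 7.06, 7.17 and 7.43 in BRL37344 old and 7.2, 7.42 and 7.49 in saline old. Ndufa12, a complex I subunit, stood at 164, 131 and 171 RPKM in BRL37344 old and at 174, 196 and 195 RPKM in saline old. Cytosolic ribosomal proteins went the other way, with 54 of 74 positive and a median of 0.11, and 4 wholly higher and 2 wholly lower, shares near or under the 4.82% and 5.28% of all genes. Their pseudogenes may share reads with them.

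Immune response lists had few members apart. In the interferon list, 20 of 29 were negative, with a median of -0.08 that became 0.10 without BRL37344 replicate 3. Replicates 1, 2 and 3 lay below every saline old library for 5, 8 and 21 members, against 25.8%, 25.7% and 26.8% of all genes. They lay above every saline old library for 9, 9 and 1 members, against 28.2%, 28.2% and 20.9% of all genes. Ifit1, Rtp4 and Ifitm3 were wholly lower, 3 of 29 against 5.28% of all genes. Ifitm3, a membrane protein that blocks virus entry, stood at 1475, 1632 and 1542 RPKM in BRL37344 old and at 1821, 1861 and 1777 RPKM in saline old. Rtp4 stood at 43.7, 44 and 34.9 RPKM in BRL37344 old and at 57.9, 64.9 and 50.2 RPKM in saline old. In the NF-kB list, 15 of 26 were positive and Rela and Nfkbiz were wholly higher, against 4.82% of all genes. Ccl3, an inflammatory chemokine, stood at 22, 15.7 and 4.04 RPKM in BRL37344 old and at 5.19, 5.62 and 2.04 RPKM in saline old, and overlapped. The p53 target Bbc3, the cell death protein Puma, was higher with no overlap, at 4.09, 3.71 and 5.51 RPKM in BRL37344 old and 2.30, 2.24 and 2.21 RPKM in saline old, while the death receptor gene Fas was wholly lower and the p53 list had a median of -0.07. In the unfolded protein response list, Ddit3, the stress factor CHOP, was higher with no overlap, at 15.6, 21.6 and 14.9 RPKM in BRL37344 old and 12, 12.2 and 13.1 RPKM in saline old, while Pdia3 and Pdia6, protein disulfide isomerases, were wholly lower and the list's median was 0.01. Pdia6 stood at 158, 161 and 166 RPKM in BRL37344 old and at 181, 183 and 204 RPKM in saline old. Of 16 tested p53 genes, 1 was wholly higher and 1 wholly lower, and of 21 unfolded protein response genes 1 and 2. Over all genes these shares were 4.82% and 5.28%.

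Markers of other blood cells varied widely between the BRL37344 libraries. The summed level of 13 neutrophil genes was 221, 5515 and 1872 RPKM in BRL37344 old and 941, 719 and 715 RPKM in saline old, and all 13 were tested. S100a8, a calcium-binding protein of neutrophils, stood at 104, 2755 and 913 RPKM in BRL37344 old and at 476, 367 and 337 RPKM in saline old. Mpo, the myeloperoxidase of granulocyte precursors, stood at 3.27, 142 and 7.11 RPKM in BRL37344 old and at 1.89, 1.35 and 1.44 RPKM in saline old. The summed granulocyte progenitor list ranged from 926 to 1399 RPKM in BRL37344 old and from 912 to 1027 RPKM in saline old.

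The B and plasma cell list summed to 87.5, 2259 and 483 RPKM in BRL37344 old and to 114, 125 and 59.2 RPKM in saline old, carried by the light chain gene Igkc, at 2.07, 1909 and 426 RPKM in BRL37344 old. Jchain, the joining chain of secreted antibodies, stood at 2.09, 263 and 6.16 RPKM in BRL37344 old and at 16.3, 2.76 and 0.928 RPKM in saline old. Pax5, which defines B cells, was at the offset in all old libraries. The T cell receptor gene Cd3e was at the offset in saline old and in BRL37344 replicate 1, and at 1.64 and 0.359 RPKM in replicates 2 and 3. Erythroid genes summed to 126 to 284 RPKM in BRL37344 old, against 145 to 291 RPKM in saline old, and Car1, an early erythroid carbonic anhydrase, stood at 2.16, 1.35 and 14.5 RPKM in BRL37344 old and at most at 0.929 RPKM in saline old. Monocyte and macrophage genes summed to between 602 and 921 RPKM in BRL37344 old and between 564 and 724 RPKM in saline old, and endothelial and stromal genes to 50.4 to 63.1 RPKM in BRL37344 old, against 46.2 to 69.1 RPKM in saline old. The neutrophil median log2 change of 0.72 became -0.34 without BRL37344 replicate 2. The groups did not overlap for Mpo and Fcnb (2 of 8 tested granulocyte progenitor genes), Ccr2 and Fcgr1 (2 of 13 monocyte and macrophage genes) and Car1 (1 of 14 erythroid genes). Each was higher in BRL37344 old, against 4.82% of all genes wholly higher. The neutrophil, B and plasma cell, T and NK cell and endothelial lists had 0 such genes. Levels were low and gaps small for Ccr2, with 0.669 RPKM as the lowest BRL37344 and 0.624 RPKM as the highest saline old value. For Fcgr1 these were 0.312 and 0.246 RPKM. The lymphoid priming and MHC class II lists were high in replicate 1 too, where the summed neutrophil level was below the saline old range and the B and plasma cell level within it. The part of other cell types in the levels of these 2 lists was not tested.

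**Figure D5:**
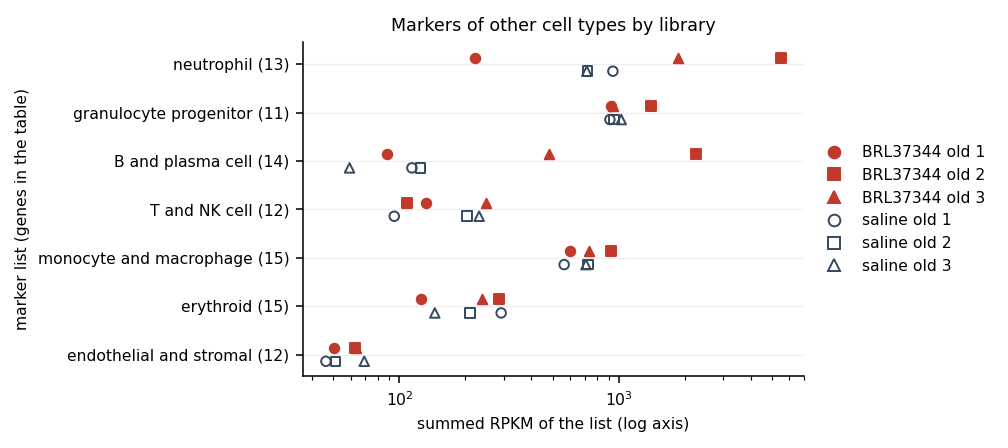
Summed RPKM of marker lists of other cell types on a log axis, by library, with BRL37344 old as filled symbols above the open saline old symbols. Neutrophil and B and plasma cell sums span more than the saline old range in BRL37344 old, highest in replicate 2, while the other lists overlap between the groups.

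Genes at the top of the whole ranking were of low level or uncertain identity. Gm24786 stood at 32.4, 7.70 and 5.76 RPKM in BRL37344 old and at the offset of 0.0001 RPKM in all 3 saline old libraries. Gm24161 stood at 26.6, 4.23 and 6.32 RPKM in BRL37344 old and at the same offset in saline old (limma adjusted p = 0.0928). Sephs1, a selenophosphate synthetase gene, stood at 2.12, 2.44 and 1.84 RPKM in BRL37344 old and close to its offset in saline old, below 0.001 RPKM (limma adjusted p = 0.0928). An exact offset can be a failed estimate in a table without counts, so no fold is given for these genes. No other gene had an adjusted p under 0.839.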

How the data were processed

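RNA from about 2000 sorted HSCs per library was amplified with SMART-Seq v4 and sequenced, per the labels' protocols. Trim Galore, STAR 2.5.3a, Partek and mm10 are named in the submitters' processing notes. The authors deposited gene values in RPKM; that unit was inferred from the values, which could also be FPKM. A gene with no reads is listed at 0.0001 per transcript rather than at 0. Of 46628 rows, 2 had no gene name and stayed out. Sample titles gave the groups, because every description carries the same tag.

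Log2(RPKM + 0.5) was fitted with limma 3.58.1 (R 4.3.3, trend and robust) for genes at 1 RPKM or more in at least 3 libraries, in 1 model of 3 group means over 9 libraries with 6 residual degrees of freedom. Benjamini-Hochberg adjustment ran over 13516 genes, with a threshold of 0.05. The pseudocount understates changes of low genes. The fit was tested on simulated data. Reads per library were inferred from the steps between low values of 5547 genes with 1 annotated transcript, where 88.3% to 89.8% of low values fell within 0.05 of a whole read.

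The members, the 31 gene lists and the rule for named genes were chosen with earlier results of these data known, so lists are described by counts and medians and have no test. In each direction the rule took the 12 smallest p among genes with separate groups, a mean log2 level of at least 3 and no predicted, clone or date name. It added up to 4 genes of each list by p, up to 8 called genes of each alternative that left out or weighted libraries or fitted 2 groups, and a fixed set. Other list members named as examples were chosen after their values were seen. Promoter windows come from RefSeq. Alternatives covered pseudocounts, low-value filters, scalings, library weights, only the old groups, plain empirical Bayes, a replicate block and leaving out single libraries.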

Additional observations from a re-analysis of the deposited data

How the results depend on the processing

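The count of genes past the threshold, 0 with the design as given, was 1 (higher) with a pseudocount of 0.1, 3 (all higher) with sample quality weights, 2 (both higher) with only the 2 old groups in the fit and 1 (higher) with plain empirical Bayes. It was 0 with a pseudocount of 1, no filter, a filter of 5 RPKM, quantile normalization and median ratio scaling. Leaving out each library in turn gave 0 to 39 genes, 0 to 12 higher and 0 to 27 lower, with the upper end of each without BRL37344 old replicate 3; each other library gave 0 or 1. The genes past the threshold in the other settings were predicted or small RNA genes and Sephs1. The cause was not tested. With the replicate number as a block the count was 0; deviations of same-numbered BRL37344 and saline old libraries correlated at 0.01, -0.05 and 0.09, so the numbers are not taken to pair them. Over 19 alternatives, the median log2 change ranged from -1.31 to -0.56 for mitosis (lowest without BRL37344 replicate 3, highest without replicate 2), from -0.56 to -0.29 for the aged HSC signature, from 0.39 to 0.82 for lymphoid priming, from 0.38 to 0.82 for MHC class II and from 0.14 to 0.34 for cAMP targets. Of 31 lists, 11 had a median that changed sign in at least 1 alternative, as did 8 of 164 named genes. The 3 libraries per group limit what the test can find. Genes near 1 RPKM rest on fewer reads in the shallow libraries, for a 2 kb transcript 31 in saline old replicate 1 against 90 in BRL37344 replicate 3.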
